A study of Ovis aries with 18 samples.

Results

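The regions described here are 200-bp windows of the sheep genome in which the DNA methylation of sperm differed by at least 40 percentage points between the highest and the lowest of 6 rams. They were found by cutting the 26 numbered chromosomes into non-overlapping windows, keeping the 105315 windows that held at least 5 measured cytosines, and summing methylated reads and all reads over the cytosines of a window in each ram. Of these windows, 2054 (1.95%) reached the threshold and are called varying windows below. They held 19972 of the 1850625 measured cytosines. The windows were chosen by the measured levels of all 6 rams, so the levels and the way the rams order in them are a description. The diet test given below was fitted to all windows, and its q values in the varying windows describe the same levels and support nothing further.

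The study asked whether extra methionine in the diet of prepubertal rams is followed by changes in sperm DNA methylation and in the transcripts of the embryos they sire. The 6 animals were Polypay rams, with a single sperm sample each. Ram410, Ram423 and Ram444 received a basal diet and are the control rams. Ram424, Ram498 and Ram511 received the same basal diet with 1.5 g (0.22%) of rumen-protected methionine, which is coated so that rumen microbes do not break it down, and are the methionine-treated rams. The ages of the individual rams were not given in the sources used here. Blastocysts sired by the same rams were sequenced as 12 pools of 5 embryos, with 2 pools for each control ram, 4 for Ram424 and 1 each for Ram498 and Ram511, so that the methionine pools lean on a single sire. The ram was the replicate for methylation.

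DNA methylation is the addition of a methyl group to a cytosine, in mammals mainly where a guanine follows it (a CpG site). In sperm, CpG-rich stretches at gene starts are mostly free of methylation while most of the remaining genome carries it, so that a level between these extremes means that methylated and unmethylated copies are mixed in the same sample. Reduced representation bisulfite sequencing (RRBS) cuts DNA at a fixed short motif to enrich CpG-rich fragments, and bisulfite turns unmethylated cytosines into bases read as thymine. A cytosine that is replaced by thymine in the genome of an animal therefore reads like an unmethylated cytosine, and base differences between the rams were not tested here. Methionine is the precursor of S-adenosylmethionine, the methyl donor of DNA methyltransferases.

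The libraries were not alike in depth, and this touches the levels below. Coverage summed over all cytosines, in which a read counts once for each cytosine it covers, was 44504409 to 49936380 in Ram410, Ram423, Ram444 and Ram424, and 61321968 and 75603721 in Ram511 and Ram498. Of this summed coverage, 14.8 to 15.6% were methylated in the former 4 rams, against 9.12% in Ram511 and 6.14% in Ram498. In windows with a mean level over 90%, Ram498 and Ram511 had a median of 12.0 and 16.7 reads per cytosine against 22.0 to 25 in the other rams, while in windows with a mean level under 5% they had 42.5 and 33 against 21.9 to 24.8. The mean levels in those methylated windows were 96.7 to 97.6% in all 6 rams. Reads from methylated DNA were thus fewer, and reads from unmethylated DNA more numerous, in the 2 libraries, which both belong to methionine-treated rams. Whether the sample labels are those of sperm was not checked against imprinted and germ line loci, since no annotation of the genome build was used here.

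The varying windows lay almost entirely at intermediate methylation. Their median range between rams was 49.8 points, against 1.52 points over all windows. The range reached 50 points in 1007 varying windows, 60 points in 480, 70 points in 232, 80 points in 86 and 90 points in 20, and its highest value was 100 points. The mean over the rams fell between 20 and 80% in 1899 varying windows (92.5%), against 7405 (7.03%) of all windows. Among windows in this middle class, 25.6% were varying. By contrast, 75.7% of all windows had a mean under 5%, where no varying window lay, and 8.05% had a mean over 90%, where 1 did. A wide range needs a mean away from 0 and 100%, so the rule itself favours this class, and 5506 middle-level windows that did not reach the threshold serve as the comparison below.

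Depth limited the precision of each level. The lowest coverage per cytosine over the 6 rams had a median of 15.7 reads in varying windows and 18.5 reads in all windows. Since neighbouring cytosines share reads, the mean coverage per cytosine was taken as the number of reads behind a level, and the 95% Wilson interval then reached a median of 17.5 points to either side. Under that count, the intervals of the highest and the lowest ram did not overlap in 1797 varying windows (87.5%), against 2.29% of all windows. With a threshold of 40 points and intervals of this size, the rule itself nearly fixes that count. The intervals cover counting error only. At the threshold, the 3 windows just inside had ranges of 40 points, and the 3 just outside had 39.96 to 39.97 points.

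Within varying windows most cytosines also passed the threshold singly. Of their cytosines, 87.4% had a range of at least 40 points themselves, against 2.36% of the cytosines of all windows. The windows were chosen on the sum of these same cytosines, so the rule largely fixes a high share. In 928 windows all cytosines reached 40 points, and in 35 windows fewer than 50% did. Comparing the highest with the lowest ram of the window, 98.6% of the cytosines differed in the same direction as the window, which the sum over the same cytosines largely fixes. The cytosines of a window spanned a median of 81 bp, which a single 100-bp read can cover. The 2 strands of a CpG site are listed apart and are read from different DNA strands. In 1168 varying windows with at least 3 cytosines on each strand, the range was at least 40 points on both strands in 944 (80.8%), with the same highest ram in 863 (73.9%) and the same lowest ram in 741 (63.4%). The windows were chosen on the sum over both strands, so the rule favours these shares too. Over all varying windows, Ram444 was highest in 40.9% and Ram498 lowest in 40.7%, which also favours a shared ram.

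The 6 windows of largest range each ran from near 0 to near 100% between individual rams. In the window at chr4:128982401-128982600, with 5 cytosines at 12.0 to 21.0 reads, the levels were 100% in Ram410, 50.6% in Ram423, 51.2% in Ram444, 61.2% in Ram424, 0% in Ram498 and 98.3% in Ram511. Its interval was 75.8 to 100% in Ram410 and 0 to 15.5% in Ram498. Each diet therefore held a ram near 100%, and the lowest and one of the highest levels came from the same diet. Coordinates are those of the sheep build Oar_rambouillet_v1.0.

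At chr12:1655401-1655600 the levels were 99.2% in Ram410, 52.5% in Ram423, 52.3% in Ram444, 46.2% in Ram424, 0.725% in Ram498 and 0.595% in Ram511. At chr4:129896401-129896600 they were 98.3% in Ram410, 0% in Ram423, 52.6% in Ram444, 52.8% in Ram424, 11.3% in Ram498 and 23.8% in Ram511. In both windows a control ram was highest, and the remaining rams took middle and low places. The other 3 windows adjoin each other at chr1:297013401-297014000. In the middle one of them, the levels were 0.431% in Ram410, 96.7% in Ram423, 99.1% in Ram444, 62.2% in Ram424, 15% in Ram498 and 0% in Ram511. Here 2 control rams were nearly fully methylated while the third control ram was nearly unmethylated, so the range within 1 diet was as wide as between diets.

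In 31 varying windows every ram stood at 0 to 10%, 40 to 60% or 90 to 100%, and 3 of these held all 3 steps. The chr12 window above is one. The window at chr4:126521201-126521400 had 5.68% in Ram410, 51.1% in Ram423, 46.2% in Ram444, 95% in Ram424, 95.7% in Ram498 and 5.35% in Ram511. The window at chr6:127418201-127418400 had 9.76% in Ram410, 90.6% in Ram423, 54.1% in Ram444, 96.1% in Ram424, 59.1% in Ram498 and 58.6% in Ram511. Most varying windows did not take such steps, and their levels were spread over the whole scale.

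Across the 2054 windows, Ram444 had the highest levels and Ram498 and Ram511 the lowest. The mean level was 45.8% in Ram410, 57.3% in Ram423 and 62.4% in Ram444 among the control rams, and 57.5% in Ram424, 31.8% in Ram498 and 34.4% in Ram511 among the methionine-treated rams. Ram424 thus stood with Ram423 and Ram444, and Ram410 stood between the 2 sets. Averaged over rams, the control mean was 55.2% ± 8.53 (SD, n = 3) and the methionine mean 41.2% ± 14.2 (SD, n = 3), with overlapping rams. The highest ram was Ram444 in 840 windows, Ram423 in 548, Ram424 in 439, Ram410 in 154, Ram511 in 38 and Ram498 in 35. The lowest was Ram498 in 835, Ram511 in 702, Ram410 in 286, Ram423 in 120, Ram424 in 61 and Ram444 in 50. In the 5506 middle-level windows below the threshold the rams had the same order, with mean levels of 47.0% in Ram444, 45.4% in Ram424, 43.1% in Ram423, 40% in Ram410, 36.7% in Ram511 and 35.0% in Ram498.

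**Figure D1:**
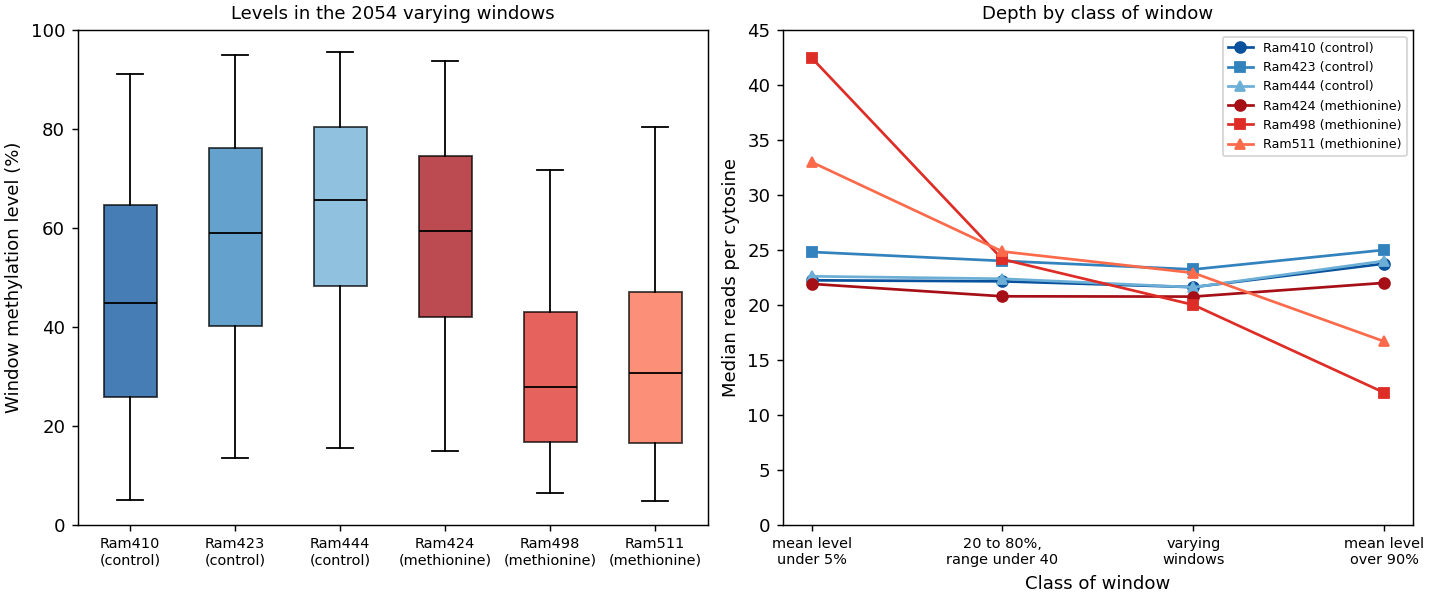
Left, methylation level (%) of the 2054 varying windows in each ram; boxes span the quartiles, the line is the median and the whiskers reach the 5th and 95th percentiles. Right, median reads per cytosine in 4 classes of window for each ram; Ram498 and Ram511 fall from 42.5 and 33 reads in unmethylated windows to 12.0 and 16.7 in methylated windows, while the other 4 rams keep to between 20.8 and 25.

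Depth in the varying windows themselves was even, with a median of 20 reads per cytosine in Ram498, 22.9 in Ram511 and 20.8 to 23.2 in the other 4 rams. Its makeup was not. Median methylated reads per cytosine were 5.67 in Ram498 and 6.77 in Ram511 against 9.24 to 13.4 in the others, and median unmethylated reads were 14.0 and 15.3 against 7.17 to 11.6. The same tilt was seen in windows that do not vary, as given above. Counts after scaling by these depths are given below.

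To ask how the rams group, the 6 levels of each window were ordered and the widest gap between neighbours was taken to divide them. This set a single ram apart from the other 5 in 1046 varying windows (50.9%), 2 rams from 4 in 680 (33.1%) and 3 from 3 in 328 (16.0%). The shares were 50.6, 33.7 and 15.7% in the middle-level windows below the threshold, so that the sizes of the divided sets were nearly those of less variable windows. A single ram stood high in 635 of the 1046 windows and low in 411. Ram444 alone was high in 313 windows, the most frequent division of all (15.2%), followed by Ram498 and Ram511 together low in 229 (11.1%), Ram498 alone low in 224 (10.9%), and Ram410, Ram498 and Ram511 together low in 190. Ram423 alone was high in 147, Ram424 alone high in 123 and Ram511 alone low in 122. Ram410 stood alone least often, high in 40 and low in 30. The division by diet was taken by 29 varying windows (1.41%), and by 47 of the 5506 middle-level windows below the threshold. Among divisions of 3 against 3 in either direction, Ram410, Ram498 and Ram511 against the rest was taken by 191 varying windows. The other 8 such divisions were taken by 2 to 31 each.

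For each ram, the window in which it stood alone by the widest gap shows the size these differences reached. Ram424 had 94.9% at chr2:72382001-72382200, where the other rams had 6.14 to 21.3%. Ram423 had 95.8% at chr5:1117801-1118000, against 8.15 to 19.2%. Ram444 had 87.7% at chr20:48300401-48300600, against 0 to 11.4%. Each of these sets a high ram over 5 low ones, and Ram424 and Ram423 are of different diets. Ram511 had 85.1% at chr10:84474401-84474600, against 4.10 to 23.4%, one of 6 windows in which it was alone high. Ram410 was alone low at chr6:125581401-125581600, with 26.7% against 97.0 to 100%, and Ram498 at chr7:91354401-91354600, with 26.6% against 90.6 to 98.1%.

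Diet was not the division along which the varying windows most often separated. All 3 control rams lay on one side of all 3 methionine-treated rams in 228 varying windows (11.1%), against 9.05% of all windows and 8.66% of the middle-level windows below the threshold. In 219 of the 228 the methionine-treated rams were lower. Ram498 and Ram511 also had the lowest mean levels in the middle-level windows below the threshold, at 35.0 and 36.7%. Of the 47 such windows divided by diet at the widest gap, 43 were lower with methionine. The direction after scaling of reads was not counted. Ram423, Ram424 and Ram444, a set of 2 control rams and 1 methionine-treated ram, lay entirely apart from Ram410, Ram498 and Ram511 in 824 (40.1%), against 12.6% of all windows and 26.5% of the middle-level ones. There are 10 ways to divide 6 rams 3 against 3, and the other 8 separated 51 to 275 varying windows each. The mean of Ram423, Ram424 and Ram444 was above that of the other 3 rams in 1917 varying windows (93.3%) and in 89.2% of the middle-level windows below the threshold. Of the sum of squares between rams, a median of 20.1% lay along diet and 44.8% along this other division. In the middle-level windows the medians were 12.3 and 30.7%. Between 6 rams there are 5 degrees of freedom, of which a single division takes 1, or 20%. The other division was singled out because it led the 10 in these same windows, so its share is high by choice. In these bulk samples, a change in sperm cells and a change in the share of other cells cannot be told apart. The study washed the semen and lysed somatic cells before DNA extraction.

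The same picture came from pairs of rams. The mean absolute difference over the varying windows was smallest between Ram498 and Ram511, at 15.5 points, and these share a diet. The next were Ram423 and Ram424 at 19.2 points, Ram410 and Ram511 at 19.3 points and Ram444 and Ram424 at 20.1 points, each pair of different diets. The widest were Ram444 and Ram498 at 32.7 points, Ram444 and Ram511 at 32.0 points and Ram423 and Ram498 at 30.6 points, all of different diets. The 6 pairs within a diet averaged 23.4 points (15.5 to 28.7) and the 9 pairs between diets 24.9 points (19.2 to 32.7). Both the closest pair and the farthest pairs contain Ram498 or Ram511. Within the control diet alone, the range among the 3 rams reached 40 points in 767 varying windows, and within the methionine diet in 843. Together, 1401 varying windows (68.2%) reached the threshold among rams of a single diet.

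**Figure D2:**
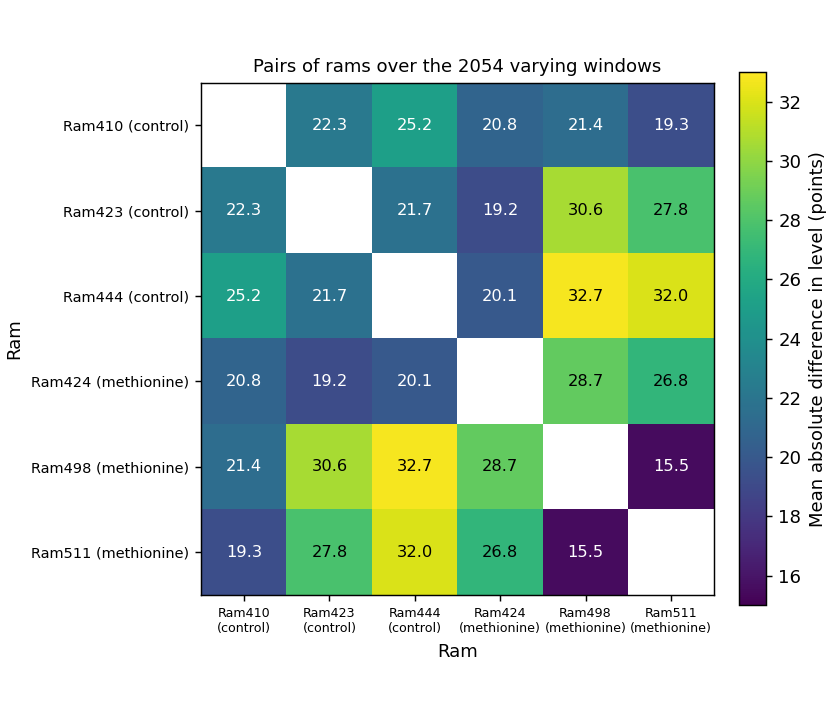
Mean absolute difference in methylation level (percentage points, colour and printed value) over the 2054 varying windows for each of the 15 pairs of rams. Ram498 and Ram511 are the closest pair at 15.5 points and Ram444 and Ram498 the farthest at 32.7 points, and the methionine-treated Ram424 is nearer to each control ram (19.2 to 20.8 points) than to Ram498 or Ram511 (28.7 and 26.8 points). After scaling of reads this no longer held, and Ram424 was nearest to Ram511 at 19.2 points.

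The leading division changed when reads were scaled. When methylated reads of each ram were scaled by its depth in windows over 90% and unmethylated reads by its depth in windows under 5%, an alternative added after the values were seen, 1660 windows had a range of at least 40 points, of which 1138 were among the 2054. Ram423, Ram424 and Ram444 then lay apart from the other rams in 183 windows (11%), near the 10.8% of all windows, and their mean was higher in 56.5%. The division by diet held 171 windows (10.3%), with 22.4% of all windows under this scaling. That share of all windows was 9.05% as deposited, so the scaling itself changed it. Of all windows, 75.7% had a mean level under 5%, where small shifts reorder the rams. It is therefore no steady background for the varying windows. Ram498, the lowest ram before, was now highest in 594 of the 1660 and had the highest mean level, 58.2%, while Ram511 had 44.5%. Ram444, Ram424, Ram423 and Ram410 kept their order, with 53.5, 50.1, 47.6 and 36.5%, and Ram410 became the lowest ram. The division held by the most windows was now Ram410, Ram423 and Ram511 against Ram444, Ram424 and Ram498, with 301 (18.1%, against 6.67% of all windows), followed by Ram410, Ram423 and Ram424 against the other 3 with 276 (16.6%, against 16.1%). Of the sum of squares, a median of 14.8% lay along diet and 14.1% along the former leading division. The widest gap set a single ram apart in 60.8% of these windows. When levels were centred instead on the median deviation of each ram in middle-level windows, 1343 windows had a range of at least 40 points, 1223 of them among the 2054, and the division of Ram423, Ram424 and Ram444 from the other 3 held 283 (21.1%).

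Pairs within a diet averaged 22.9 points and pairs between diets 23.0 points after scaling, and the order of the pairs changed. The closest pair was then Ram424 and Ram511 at 19.2 points, followed by Ram410 and Ram511 at 19.7 points, and the farthest was Ram410 and Ram498 at 29.6 points. Ram498 and Ram511 differed by 22 points, and Ram424 was no longer nearer to each control ram (20.8 to 22.7 points) than to both other methionine-treated rams. Leaving Ram498 and Ram511 out altogether, 986 of the 2054 windows still varied by at least 40 points among the remaining 4 rams. Ram444 was highest in 433 of them, Ram423 in 255, Ram424 in 216 and Ram410 in 82, and Ram410 was lowest in 553. Of the varying windows, 48.0% were therefore defined without any value of the 2 libraries whose depth was tilted. With a single methionine-treated ram left, diet cannot be compared in this set.

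**Figure D3:**
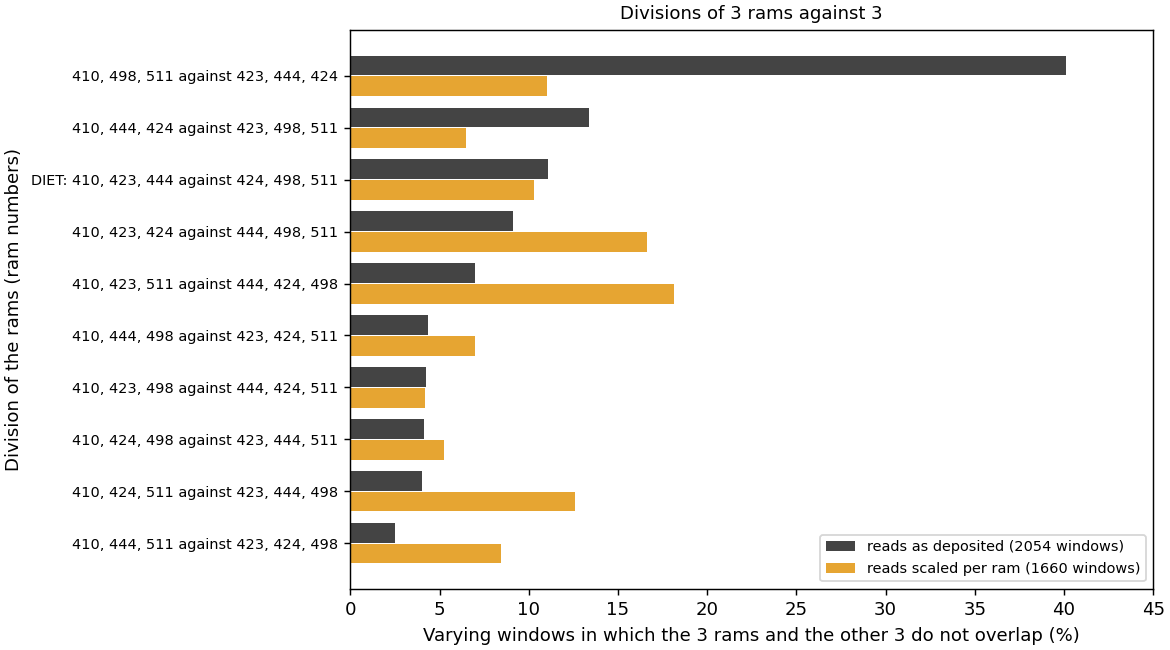
Share (%) of varying windows in which 3 rams and the other 3 do not overlap, for the 10 divisions of 6 rams, with reads as deposited (2054 windows, dark bars) and with reads scaled per ram (1660 windows, light bars). The division of Ram410, Ram498 and Ram511 against Ram423, Ram444 and Ram424 falls from 40.1 to 11%, and the division by diet is 11.1 and 10.3%.

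A direct test of diet was fitted to all 105315 windows, with a logistic regression of methylated and unmethylated reads, a chi-square test corrected for overdispersion and a call at a Benjamini-Hochberg q under 0.01 with over 20 points between pooled reads. It called 46 windows (0.0437%), 23 of them varying, all 23 lower with methionine. Ram498 and Ram511 were also the lowest rams on average in middle-level windows below the threshold, as given above. An unadjusted p under 0.05 was found in 323 varying windows and in 6.89% of all windows. Since the threshold on the range used the same levels, the count is a description. A pooled difference over 20 points occurred in 726 varying windows, which the threshold on the range itself favours. The share of all windows with such a difference was not counted. The median overdispersion over all 2054 varying windows was 30.7 times the binomial variance. An F test, and limma on logit levels, called none of the windows, with an unadjusted p under 0.05 in 115 and 354 varying windows, so that the calls rest on the chi-square form of the test with 3 rams a group. Without Ram424 the test called 171 varying windows, without Ram410 it called 78, without Ram444 38 and without Ram423 35. Without Ram498 the count was 32 and without Ram511 19.

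The smallest q, 1.47e-36 in the chi-square test over all windows, belonged to chr23:64611401-64611600, within an intron of CCBE1, a secreted protein needed for the growth of lymphatic vessels. Its levels were 99.2% in Ram410, 100% in Ram423 and 99.0% in Ram444, against 67.3% in Ram424, 62.5% in Ram498 and 58.8% in Ram511. At chr16:33414401-33414600 (q = 5.29e-18 in the same test) they were 44.4, 37.1 and 39.3% in Ram410, Ram423 and Ram444, and 7.78, 6.90 and 3.90% in Ram424, Ram498 and Ram511. At chr17:81855001-81855200, in the 3′ untranslated part of an exon of LOC101108295 (q = 1.16e-14 in the same test), they were 87.4, 90.4 and 87.5% in the control rams and 61.5, 49.7 and 61.2% in the methionine-treated rams in the same order. The diets did not overlap in these 3 windows and the spread within a diet was narrow, with SDs of 0.544 to 6.73 points, unlike the windows of largest range above. Their ranges of 40.5 to 41.2 points place them just over the threshold, and after scaling they were 39.7, 30 and 33.3 points. In the chr23 window the overdispersion was at its floor of 1, so its q in the chi-square test rests on read counts alone. With limma on logit levels, q was 0.359, 0.979 and 0.979 in the 3 windows.

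The genome build of the files could not be joined to a gene annotation here, so genes are known only for 29 varying windows that contain 1 of the 166 sites listed by the study with their annotation. The study chose those sites on these same rams for their difference between diets, and they are no sample of the 2054. Of the 29, 13 lay in a gene (11 in introns and 2 in exons) and 9 in intergenic sequence. The remaining 7 lay only in a promoter as the study defines it, which reaches kilobases upstream of a gene start. The rams of the diets did not overlap in 25 of them, 27 were lower in pooled reads with methionine, and 14 were among the 23 calls. The remaining 2025 varying windows held none of these sites.

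Several of these genes are known from development and metabolism. An intron of CARS, which encodes the enzyme that charges cysteine tRNA and lies in an imprinted neighbourhood in mammals, held a window of 27 cytosines at chr21:50425601-50425800. Its levels were 48.4% in Ram410, 58.6% in Ram423 and 66.8% in Ram444, against 31.0% in Ram424, 23.0% in Ram498 and 32.4% in Ram511 (q = 3.33e-05 in the chi-square test). An intron of FSTL4, a follistatin-like secreted protein, at chr5:47133801-47134000 had 33.3, 46.8 and 48.3% in the control rams and 18.6, 5.77 and 8.01% in Ram424, Ram498 and Ram511 (q = 0.000951 in the same test). All 3 methionine-treated rams lay below all 3 control rams in both windows as deposited. After scaling of reads the range was 33.5 points at CARS, where Ram410 (39.4%) fell below Ram498 (43.8%) and Ram511 (41.2%), and 28.1 points at FSTL4, where the diets still did not overlap. The CARS call was lost without Ram423 (q = 0.0454 in the same test), and the FSTL4 call without Ram423, Ram444 or Ram511 (q = 0.053, 0.0552 and 0.0464).

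An intron of CHST11, a sulfotransferase of chondroitin, went the other way at chr3:186106801-186107000. The control rams had 11.1% (Ram410), 3.74% (Ram423) and 8.22% (Ram444), and the methionine-treated rams 51.9% (Ram424), 22.0% (Ram498) and 37.4% (Ram511), which was not called (q = 0.0923 in the chi-square test). The windows in introns of CNTF, a neurotrophic factor, and SLIT3, a guidance ligand of ROBO receptors, were lower with methionine and also not called, with q = 0.0237 and 0.264 in the same test. At CNTF (chr15:88384001-88384200) the levels were 72.6, 77.3 and 76.8% in the control rams and 60, 33.2 and 33.8% in Ram424, Ram498 and Ram511. At SLIT3 (chr16:931401-931600) they were 94.6, 94.9 and 87.7% in the control rams and 83.2, 53.3 and 70.4% in the same 3 rams. In both, Ram424 lay nearer to the control rams than Ram498 and Ram511 did as deposited. After scaling the ranges fell to 28.6 points at CNTF, where Ram498 (56.5%) lay above Ram424 (52.5%), and to 18.3 points at SLIT3. The CHST11 range was 43.9 points after scaling. With a ram left out, the test called CNTF (q = 5.30e-61) and SLIT3 (q = 0.0016) without Ram424 and CHST11 (q = 1.82e-06) without Ram498.

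Position was not used to choose the windows. Varying windows were concentrated toward the far ends of chromosomes as they are numbered. Within 5 Mb of the last measured cytosine of a chromosome lay 840 of them (40.9%), against 17.9% of all windows, which is 44.7 per 1000 windows. Within 5 Mb of the first measured cytosine lay 249 (12.1%), against 7.46% of all windows, or 31.7 per 1000. Farther than 10 Mb from both, there were 667, or 10.1 per 1000. The ends also held more windows of middle level, and among middle-level windows alone the varying share was 32.4% in the last 5 Mb, 23.5% in the first 5 Mb and 20.3% away from both ends. The gradient was therefore smaller, but of the same direction, once level was held in the middle class. It was also present after the scaling of reads (42.9% of 1660 windows in the last 5 Mb) and without Ram498 and Ram511 (46.5% of 986).

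The density differed between chromosomes. Chromosome 16 had 43.6 varying windows per 1000 (95 of 2178), followed by chromosome 26 with 40.3, chromosome 23 with 31.7 and chromosome 10 with 27.2. Chromosome 5 had the lowest density, 10.5 per 1000 (58 of 5517), next to chromosome 25 with 11.4. Among 5-Mb bins with at least 100 windows, the densest were 45 to 50 Mb of chromosome 26 with 94.2 per 1000, 125 to 130 Mb of chromosome 4 with 93.9, 295 to 300 Mb of chromosome 1 with 93.6, 100 to 105 Mb of chromosome 9 with 86.6 and 75 to 80 Mb of chromosome 16 with 86.5. Each of these 5 bins lies toward the far end of its chromosome. Of the 6 windows of largest range, 5 lay in the bins of chromosomes 1 and 4.

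**Figure D4:**
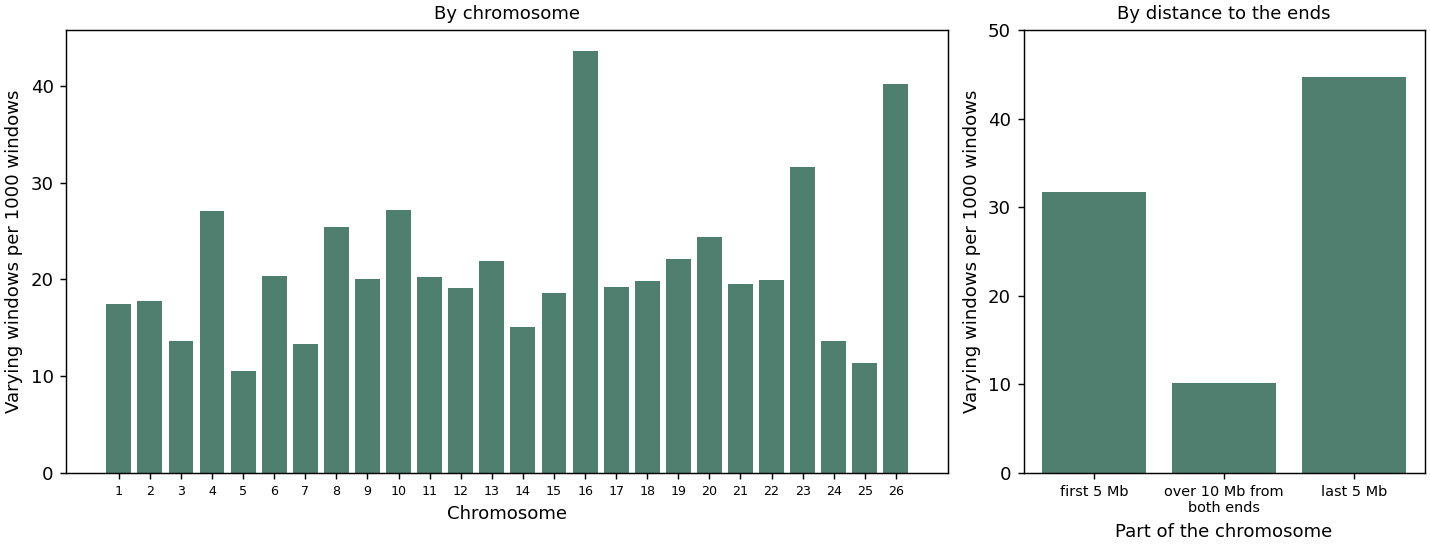
Varying windows per 1000 windows with at least 5 cytosines, by chromosome (left) and by distance to the first and last measured cytosine of a chromosome (right). Chromosomes 16 and 26 have 43.6 and 40.3 per 1000, and the last 5 Mb hold 44.7 per 1000 against 10.1 per 1000 farther than 10 Mb from both ends.

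Windows with many cytosines were seldom varying. Of windows with 5 to 7 cytosines 3.52% were varying, with 8 to 11 cytosines 2.59%, with 12 to 19 cytosines 1.51% and with 20 or more 0.439%. Within the middle-level class the shares were 25.6, 26.9, 25.6 and 21.6%, nearly level, so the fall followed the share of middle-level windows. The 3 varying windows with the most cytosines still spread widely. At chr11:459601-459800, with 47 cytosines, the levels were 2.2% in Ram410, 28.1% in Ram423, 10.2% in Ram444, 64.0% in Ram424, 6.26% in Ram498 and 33.2% in Ram511. At chr3:140252601-140252800, with 45 cytosines, they were 55.6, 40.5 and 76.4% in Ram410, Ram423 and Ram444 and 65.3, 12.3 and 38.3% in Ram424, Ram498 and Ram511. In both windows the 2 diets overlapped.

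The variation often reached past the edge of a window. Adjoining varying windows formed 296 runs of 2 or more, which held 659 windows, and 1395 windows stood singly. Windows next to a varying window that did not reach the threshold themselves (377) had a median range of 31.6 points, those at 400 to 1000 bp (774) 10.4 points and those at 1000 to 5000 bp (2011) 3.19 points, against 1.48 points over all windows below the threshold. Among neighbours of middle level, the medians were 34.0, 31.6 and 22.8 points, against 21.3 points for all middle-level windows below the threshold. The highest ram was the same as in the varying window in 71.7% of 230 adjoining pairs, 64.4% of 219 pairs at 400 to 1000 bp and 50.4% of 276 pairs at 1000 to 5000 bp. The lowest ram was the same in 64.8, 53.4 and 37.0%. Unrelated windows also share rams often, and their agreement was not counted. Ram444 was highest in 40.9% of varying and 35.6% of middle-level windows below the threshold. Ram498 was lowest in 40.7 and 42.6%. A neighbour whose highest ram was the lowest of the varying window was found in 0.435, 3.20 and 13.8% of these pairs. Reads can cross the border to an adjoining window, but 100-bp reads do not reach 400 bp.

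The 3 longest runs each had a highest ram or pair of rams of their own, in every window of the run. The run at chr2:1054801-1056000 covered 6 windows and 117 cytosines, with 18.1% in Ram410, 62.0% in Ram423, 84.9% in Ram444, 84.4% in Ram424, 27.3% in Ram498 and 14.6% in Ram511. This is the division of Ram423, Ram424 and Ram444 from the other 3, and it held in each of the 6 windows. The densest of them, at chr2:1055401-1055600 with 42 cytosines, had levels of 8.04% in Ram511 to 81.9% in Ram424. The run at chr10:95976801-95978000, with 6 windows and 87 cytosines, had 91.5% in Ram424, 47.4% in Ram410, 19.9% in Ram498, 12.0% in Ram423, 11.3% in Ram444 and 7.58% in Ram511, so that a single methionine-treated ram stood high. In the last window of that run the other 5 rams rose to 24.5 to 78.6%, with Ram424 at 97.1%. The run at chr4:129282401-129283400, with 5 windows and 43 cytosines, had 91.8% in Ram423, 58.5% in Ram424, 47.2% in Ram444, 23.0% in Ram498, 22.8% in Ram410 and 18.3% in Ram511, with a single control ram high. Past the end of the run on chromosome 4, Ram423 fell to 31.1% in the next window and to 1.35% in a window that begins 1600 bp from the start of the run, where all rams lay between 0.486 and 2.07%.

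**Figure D5:**
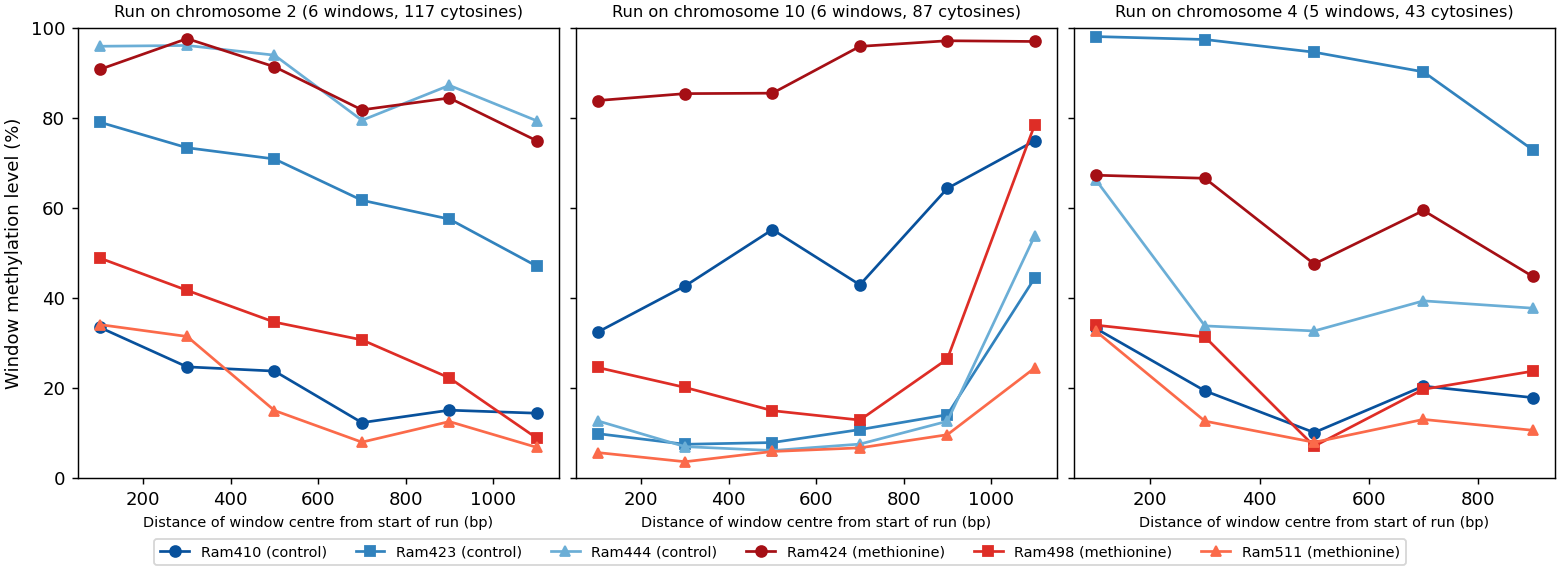
Methylation level (%) of each ram (control rams in blues, methionine-treated rams in reds) in the adjoining windows of the 3 longest runs, against the distance of the window centre from the start of the run (bp). Ram444 and Ram424 take the 2 highest places on chromosome 2, Ram424 on chromosome 10 and Ram423 on chromosome 4, in each window of the run.

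The embryos gave a readout of expression that did not enter the choice of windows. Of 13 genes that hold a varying window by the annotation of the study, 12 passed the filter of at least 15 counts in more than 3 pools, among 16488 genes tested. None was called by the quasi-likelihood test of edgeR at an FDR under 0.05, and none of the 16488 genes was (0%). An unadjusted p under 0.05 was found for 1 of the 12 genes, against 7.92% of all genes, while DESeq2 and the likelihood-ratio test of edgeR called 16 and 5 of all genes and none of the 12. In pools, fewer cells of a type and less RNA per cell cannot be told apart.

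The gene with the unadjusted p under 0.05 was CARS. Its pools had 15.6, 33 and 46.4 CPM (counts scaled to the total of a pool; lowest, median, highest) after control sires and 48.6, 68.7 and 95.1 after methionine-treated sires, which do not overlap. The means were 33.8 ± 11.7 and 71.8 ± 16.8 CPM (SD, n = 6 pools), and the log2 fold change was 1.09 (SE 0.28) with an FDR of 0.584 in edgeR's test. 4 of the 6 methionine pools share Ram424 as sire, so the pools are not 6 independent sires. SLIT3 had a log2 fold change of 1.20 (SE 0.60, FDR 0.656 in the same test) that came from the pool of Ram511 alone, with 630.5 CPM against 49.7 to 64.4 in the other methionine pools. Without this pool it was -0.23. The median absolute log2 fold change was 0.11 over the 12 genes and 0.29 over all genes tested.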

How the data were processed

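Sperm DNA of 6 rams was measured by RRBS and RNA of 12 embryo pools by sequencing, and samples were grouped by the diet and ram in their labels. The deposited values are counts: the reads called methylated and those called unmethylated at each cytosine of each ram, made by the authors with Trim Galore and Bismark on Oar_rambouillet_v1.0 after removal of duplicates by molecular identifiers and a minimum of 10 reads in each ram, and raw gene counts per pool. Versions of these tools are not printed here.

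Reads were summed over cytosines in 200-bp windows. Diet was tested in all windows by logistic regression on read counts, with overdispersion from Pearson residuals set to at least 1, without age as a covariate. Wilson intervals (95%) used the mean coverage per cytosine. Median coverage was 22 to 39 reads per ram. Embryo counts (1017847 to 2398589 per pool) were tested with edgeR 4.0.16, and limma 3.58.1 and DESeq2 1.42.0 served as alternatives, in R 4.3.3. Other steps used scipy 1.17.1, numpy 2.4.6, pandas 2.3.3 and, for the plots, matplotlib 3.10.9 in Python 3.11.15. Both tests were run on simulated data, in which 99.5% of 200 windows changed by 30 points (of 105315 windows) were recovered. Of 200 genes changed 8-fold (of 16488 genes, 6 unchanged genes also called), 99.5% were recovered. Smaller changes were not simulated. The simulated windows held no variation between rams beyond the counting of reads, while the varying windows had a median overdispersion of 30.7. Recovery in windows such as these was therefore not measured. The p-values of embryo genes measure the spread between pools that share sires. Those of windows in the chi-square test scale the diet difference by the spread between 3 animals a group. Where that overdispersion was set to 1, they rest on read counts alone, in which a read counts once for each cytosine it covers.

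Windows named are the 6 of largest range, the 3 with the most cytosines, the 3 longest runs, for each ram the one that sets it alone apart by the widest gap, the 3 of smallest diet p on different chromosomes, those next to the threshold, and those inside genes of lists (imprinted genes, germ line genes, developmental transcription factors and genes the study discusses). The windows of 3 steps were added after their values were seen. The members and lists were chosen with earlier results of these data known. Of the lists, only 6 genes with an annotated window could be given, all discussed by the study, 1 of them also imprinted (CARS). The germ line and transcription factor lists gave no annotated window, and the remaining genes, the sperm markers and the sequences of the windows are not analysed here, since no genome or annotation of the build was used.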

Additional observations from a re-analysis of the deposited data

Results flagged for a closer look

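In the embryo pools, 24 groups of 6 pools (12 genes, 2 diets) were examined for a single pool far from the other 5, of which chance flags about 1 in 20. In 5 groups such a pool was found. SLIT3 had 630.5 CPM (counts scaled to the total of a pool) in Embryo511_1 against 49.7 to 64.4 in the other methionine pools, and RBMS2, an RNA-binding protein, had 264.7 in the same pool against 142.9 to 179.9. GADL1, an amino acid decarboxylase, had 57.21 in Embryo498_1 against 14.34 to 28.31, and PFKFB3, a regulator of glycolysis, had 71.66 in that pool against 46.7 to 54.53. FSTL4 had 127.7 in Embryo444_1 against 62.33 to 71.49 in the other control pools. The sires of 4 of the 5 flagged values are Ram498 and Ram511, which have 1 pool each, while 4 of the 6 methionine pools share Ram424. In the other diet, the highest pool had 276.4 CPM for RBMS2, 93.4 for PFKFB3 and 121.6 for FSTL4. It had 48.8 for GADL1 and 94.9 for SLIT3, below the flagged values.

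Outside the numbered chromosomes, 31 of 1588 windows on the X chromosome (1.95%) and 13 of 1211 windows on unplaced contigs (1.07%) had a range of at least 40 points, beside 1.95% on the numbered chromosomes.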

How the results depend on the processing

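The number of varying windows was 3799 at a threshold of 30 points, 1007 at 50 points, 3554 with at least 3 cytosines and 1125 with at least 8, 340 (of 45089 windows) with at least 20 reads at each cytosine, 1343 with levels centred per ram and 986 without Ram498 and Ram511. It was 1537 to 1894 with each ram left out in turn. Moving the windows by 100 bp gave 2116, averaging cytosine levels 2058, leaving out the most variable cytosine 1816 and capping coverage 2037. The widest gap followed diet in 0.964% of windows after scaling of reads. It set Ram423, Ram424 and Ram444 against the others in 7.65% with at least 20 reads, 1.08% after scaling and 3.05% after centring. The diets lay apart in 12.6% with at least 20 reads. Ram423, Ram424 and Ram444 lay apart in 37.4% at 30 points, 35.9% with at least 3 cytosines, 11% after scaling and 21.1% after centring. The diet test called 0 varying windows of 0 in all by the F test (1499 of all windows had an unadjusted p under 0.05), 726 of 855 without overdispersion correction, 0 of 0 by limma (5167 under 0.05) and 5 of 10 with at least 20 reads. With a ram left out it called 19 to 171 varying windows and 43 to 369 in all, the highest without Ram424 and 154 in all without Ram410. Neighbours at 1000 to 5000 bp had a median range of 22.8 points, nearer to other middle-level windows than closer neighbours. SLIT3 in embryos had a log2 fold change of -0.23 without Embryo511_1 and up to 1.39 with another pool left out. Over all alternatives SLIT3 reached 1.97, while CARS stayed at 0.94 to 1.20 with an FDR of 0.0779 to 1. The cause of these changes was not tested, other than what fewer windows, reads or rams bring. After scaling of reads, 18 of the 25 named windows kept a range of at least 40 points. Over alternatives that leave out no ram they did so in 94 of 109. Of 72 alternatives of 8 named diet differences, 14 lost the call (10 of them under the F test or limma), 6 gained it and none turned direction. Scaling, centring and leaving out Ram498 and Ram511 were chosen after seeing the data.

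No paired analysis was possible because the replicate numbers of the rams only name different animals of the 2 diets, and embryo pools carry the number of their own sire. Limits are the 3 rams a group, a depth at which a level carries about 17.5 points of counting error either way, and the missing placement of most windows in genes.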
